A study of Drosophila melanogaster with 14 samples.

Results

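The subject is the comparison of *Drosophila melanogaster* embryos that lack the Sgg-PB class of proteoforms zygotically (sgg isoB zygotic null) with control embryos, taken from raw gene counts of this experiment only. It holds 8 of the 14 samples of the series, 4 sgg isoB zygotic null samples and 4 samples of the control for sgg isoB, and its members are all 17493 genes of the count table. Embryos were 10 to 15 h old, whole embryos were used, and single-end reads of poly(A) RNA were obtained.

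The null embryos were the non-fluorescent progeny of sgg isoB/FM7-GFP mothers and FM7-GFP/Y fathers, so that hemizygous sgg isoB males are expected. Control embryos, likewise without fluorescence, came from FM7-GFP/Y fathers and from mothers with an unedited X chromosome of the progenitor line over FM7-GFP, collected in parallel. From this cross the controls are expected to be males as well. FM7-GFP is an X chromosome balancer on which twi-GAL4 drives EGFP, so embryos were chosen by the absence of this fluorescence. The mothers of the null embryos carried a wild-type copy of *sgg* beside the edited one, and the study describes a maternal contribution of wild-type product. Control mothers carried no edited copy, so the maternal genotype differed between the groups as well, and the maternal dose was not measured. The mutation is a deletion of the terminal coding exon of Sgg-PB, made with Cas9 in the THattP40 line that expresses nos-Cas9. A DsRED marker that had replaced the exon was later removed by Cre recombinase, and the exon of Sgg-PA was left in place. The sources used here do not say from how many edited founders the line came, or whether the 4 samples of a group came from separate collections, so p-values measure the spread between these samples.

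*sgg* (shaggy) encodes the fly glycogen synthase kinase 3. In the Wnt pathway this kinase phosphorylates Armadillo, the fly beta-catenin, and marks it for destruction until a Wingless signal stops it. It is also known for roles in insulin signalling, glycogen metabolism and microtubule organisation, and the gene is known to make several protein forms.

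The deletion was directed by 2 guides, whose sequences are shown because they were used to make the edited line. They are given with the 3 bases of the PAM in capitals, as the study lists them. Their positions were not mapped here, and the target gene *sgg* is on the X chromosome.
guide 1: cgggatatattgatcgtccaTGG
guide 2: gttgttgttgttgtgggtgtAGG
Each has 20 bases before a PAM that ends in GG.

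The null samples had 14378062 to 25124367 counts on genes and the controls had 11189291 to 23798611. A count of 3, used as the floor where no sample of a group had more, corresponds to 0.120 to 0.208 CPM (reads of a gene relative to its library total, with TMM factors) in the null samples and to 0.123 to 0.273 CPM in the controls. No 2 samples of a group agreed within counting error, since the chi-squared statistic per gene was 37.3 to 84.4 between null samples and 13.1 to 24.0 between controls. The first principal component of log2 CPM (39.0% of the variance) placed all 4 null samples on one side and all 4 controls on the other. On the second (19.1%) null replicate 4 stood apart from the other 7 samples, so the calls of a list without it are given where their number differs by more than 1.5 times. Markers of the tissues of an embryo of this age were present in every sample, with summed levels of 24783 to 34107 CPM for muscle sarcomere genes in the null samples and 31518 to 38185 CPM in the controls, and of 2860 to 3688 CPM for neuronal genes in the null samples and 3698 to 4206 CPM in the controls. In whole embryos, fewer cells of a type and less RNA in each cell cannot be told apart.

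The targeted gene was measured first. *sgg* (FBgn0003371, chromosome X from 2633952 to 2679553, Release 6 assembly) had 329.9, 271, 326 and 256 CPM in the null samples, against 379.6, 328, 349.7 and 356 CPM in the controls. The groups overlapped, and the gene was not called (log2 fold change -0.26, SE 0.10, edgeR adjusted p = 0.113; two-sided exact permutation test of log2 CPM, p = 0.0571, where 4 samples against 4 cannot go below 0.0286). The table holds a single count over all exons of *sgg*, so the deleted exon cannot be seen in it, and it lacks reads that fell also on *lncRNA:CR45197*, which overlaps the gene.

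Of the 17493 genes, 15349 had a count in at least 1 of the 8 samples and 10693 were tested with edgeR's quasi-likelihood test. Calls needed an adjusted p no greater than 0.05 and a log2 fold change that reached 0.7 up or down. By this rule 488 genes were called, 4.56% of those tested, 105 higher (0.982%) and 383 lower (3.58%) in the null embryos. No overlap between groups was found in 96 of the higher and 366 of the lower genes. Calls and overlap come from the same 8 samples, so this separation follows largely from the selection of the called genes. Of all genes tested, 7.78% had every null sample above every control and 12.5% had every null sample below. Of the called genes, 58 rose and 189 fell by 1 or more on the log2 scale, 22 rose and 13 fell by 2 or more, and 11 rose and 2 fell by 3 or more. The called genes made up 9951 CPM in the null samples and 4102 CPM in the controls where higher, and 11226 CPM in the null samples and 20781 CPM in the controls where lower.

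The number of calls depended on single samples. It was 215 without control replicate 2, 202 without control replicate 3, 325 without null replicate 2 and 318 without null replicate 3, and 676 without null replicate 4. With the replicate number as a block in the fit (the replicate block) it was 170. In all 8 fits that left out 1 sample, 48 of the higher and 119 of the lower genes were called. Over all genes tested the median change was -0.01 on the log2 scale, so values below are read against a level near 0. The called genes tended to be genes of lower level, with a median of 11.4 CPM for the higher and 8.25 CPM for the lower genes, against 26.3 CPM for all genes tested.

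**Figure D1:**
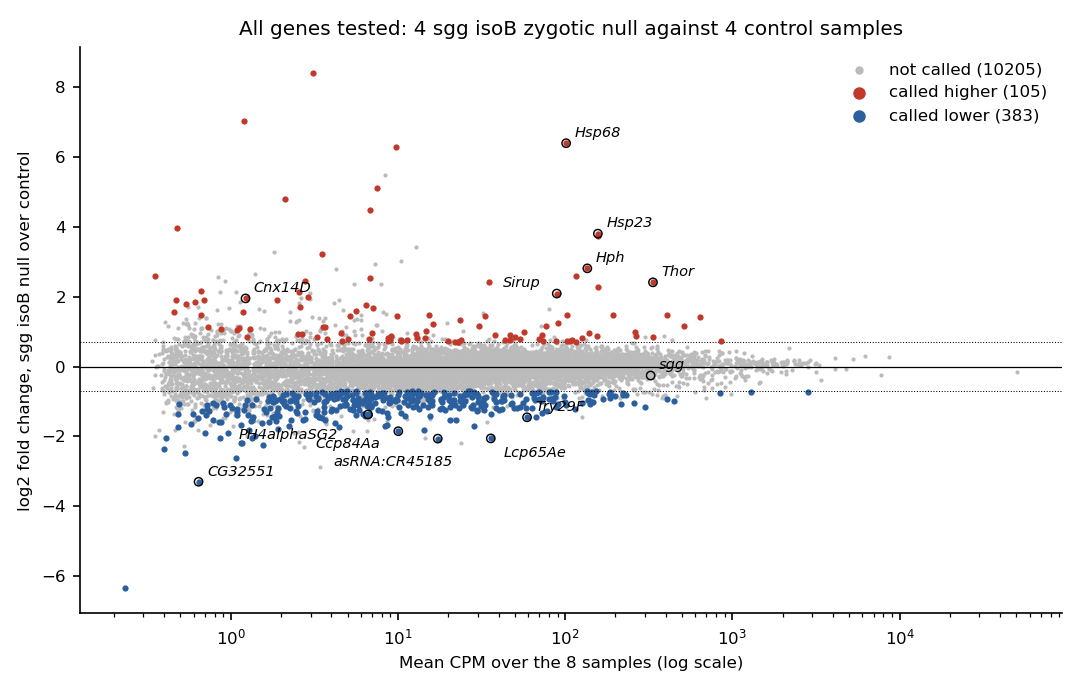
Log2 fold change (sgg isoB zygotic null over control) of each of the 10693 genes tested against its mean CPM over the 8 samples, on a log axis, with called genes in red (105 higher) and blue (383 lower) and the fold threshold as dotted lines. The higher genes include a few of large change such as *Hsp68* (6.39) and *Hsp23* (3.80), while most lower genes lie between the threshold and -2, and *sgg* lies near 0.

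The genes with the strongest evidence of a rise separated the groups widely. *Hph*, the prolyl hydroxylase that marks the hypoxia factor Sima for degradation (FBgn0264785, chromosome 3R from 5257037 to 5269507), had 247, 241, 223 and 239 CPM in the null samples, against 36.8, 30.3, 34.1 and 34.2 CPM in the controls (log2 fold change 2.81, SE 0.08, edgeR adjusted p = 1.55e-07). *Thor*, the eIF4E-binding protein that represses cap-dependent translation (FBgn0261560, chromosome 2L from 3478434 to 3479612), had 515, 659, 519 and 563 CPM in the null samples, against 94.9, 106, 103 and 121 CPM in the controls (log2 fold change 2.41, SE 0.11, edgeR adjusted p = 6.35e-06). *Sirup*, an assembly factor of succinate dehydrogenase (FBgn0031971, chromosome 2L from 7998869 to 7999676), had 145, 164, 127 and 140.5 CPM in the null samples, against 31.2, 39.2, 34.7 and 30.9 CPM in the controls (log2 fold change 2.09, SE 0.11, edgeR adjusted p = 1.1e-05). In each of these the lowest null sample was more than 3-fold above the highest control, and the spread within a group was small beside that gap. *Hph* overlaps *CR45033* and *Sirup* overlaps *Wwox*, so reads on both are missing from their counts.

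Among the other leading rises, *Dph1*, the enzyme of the first step of diphthamide synthesis on elongation factor 2 (FBgn0036194, chromosome 3L from 11693879 to 11696963), had 232, 313, 278 and 211 CPM in the null samples, against 57, 48.5, 56.5 and 53 CPM in the controls (log2 fold change 2.26, SE 0.13, edgeR adjusted p = 1.75e-05). *fok* (FBgn0263773, chromosome 2L from 20079270 to 20085070) had 576, 592, 563 and 647 CPM in the null samples, against 202, 219, 229 and 203 CPM in the controls (log2 fold change 1.48, SE 0.08, edgeR adjusted p = 1.1e-05). *Atg13*, a subunit of the kinase complex that starts autophagy (FBgn0261108, chromosome 3R from 8349815 to 8352817), had 163, 154, 141 and 147 CPM in the null samples, against 58.7, 52, 56.3 and 51.4 CPM in the controls (log2 fold change 1.47, SE 0.08, edgeR adjusted p = 1.11e-05). For all 3 the lowest null sample exceeded the highest control, which the choice of the leading genes required. Their null levels were well above the median level of all genes. *phr*, a photolyase that repairs ultraviolet damage in DNA (FBgn0003082, chromosome 2R from 7825289 to 7827319), had 9.64, 11.4, 15.1 and 10.4 CPM in the null samples, against 1.77, 2.0, 2.06 and 2.28 CPM in the controls (log2 fold change 2.52, SE 0.18, edgeR adjusted p = 0.000102), and it overlaps *Prosalpha1*. The unnamed genes *CG10600* and *CG9444* had log2 fold changes of 1.15 (SE 0.08) and 1.17 (SE 0.08), with group means of 106 ± 9.55 CPM in the null samples and 47.5 ± 1.09 CPM in the controls (SD, n = 4 each) for *CG10600* and of 42.2 ± 1.89 CPM in the null samples and 18.8 ± 1.31 CPM in the controls (SD, n = 4 each) for *CG9444*. They overlap *CG31752* and *nmdyn-D7*. All these genes kept their call in each fit without 1 sample.

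**Figure D2:**
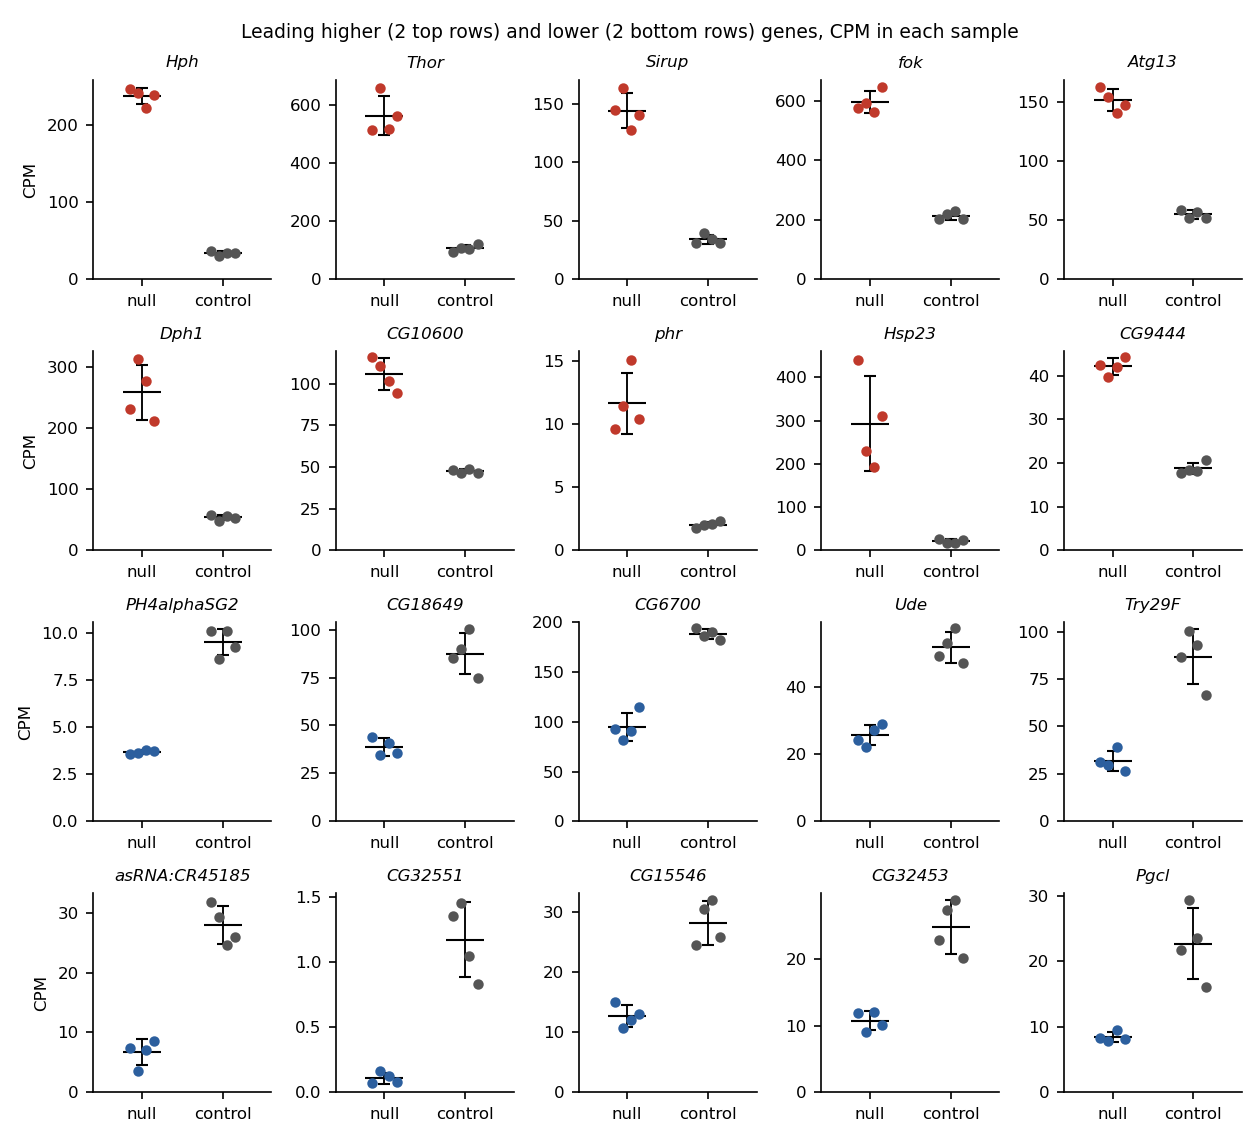
CPM (linear axis from 0) in each of the 4 null and 4 control samples for the 10 called genes with the smallest p among the higher and among the lower genes whose groups do not overlap, with the mean (long bar) and SD. In the upper 2 rows every null point lies above every control point, with *Hph* at 223 to 247 against 30.3 to 36.8 CPM, and in the lower 2 rows every null point lies below.

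Heat shock genes held several of the largest rises. They encode chaperones that bind unfolded proteins, and most are driven by the transcription factor Hsf under stress. *Hsf* itself had 179.8, 196, 186 and 173 CPM in the null samples, against 95.7, 90.9, 88.9 and 102 CPM in the controls (log2 fold change 0.96, SE 0.07, edgeR adjusted p = 0.000159). *Hsp68*, an inducible member of the Hsp70 family, had 279.9, 121, 74.1 and 326 CPM in the null samples, against 2.18, 2.91, 2.15 and 2.5 CPM in the controls (log2 fold change 6.39, SE 0.53, edgeR adjusted p = 0.000262), and it overlaps *CG6000* and *lncRNA:CR44097*. The controls of *Hsp68* lay within 2.15 to 2.91 CPM, while the null samples spread from 74.1 CPM in replicate 3 to 326 CPM in replicate 4.

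The same uneven size among null samples was seen in the small heat shock proteins. *Hsp23* had 439, 229, 193 and 309.6 CPM in the null samples, against 25.1, 16.9, 17.5 and 24.1 CPM in the controls (log2 fold change 3.80, SE 0.27, edgeR adjusted p = 0.000102). *Hsp26* had 488, 228, 188 and 270.3 CPM in the null samples, against 17, 11.2, 48.8 and 9.86 CPM in the controls (log2 fold change 3.74, SE 0.54, edgeR adjusted p = 0.00575). *Hsp27*, which overlaps *CR43483*, had 299, 158, 144 and 201 CPM in the null samples, against 41.5, 17.3, 47.8 and 24.7 CPM in the controls (log2 fold change 2.60, SE 0.34, edgeR adjusted p = 0.00369). In all 3 null replicate 1 was the highest and null replicate 3 the lowest of the null samples, and no null sample reached down to the controls. Of 12 small heat shock protein genes, 9 were tested, with a median log2 fold change of 0.28. Of these, 3 were called higher (33.3% against 0.982% of all genes) and 2 lower (22.2% against 3.58%). The 2 lower genes were *CG7409* (log2 fold change -1.42, SE 0.30) and *CG13133* (log2 fold change -0.78), the second named after its values were seen. *CG7409* lost its call without null replicate 3 or control replicate 2 or 3 (log2 fold change -1.25 to -1.32, edgeR adjusted p = 0.053 to 0.07). The summed level of the list was 1661, 1007, 906 and 1199 CPM in the null samples, against 501, 559, 576 and 516 CPM in the controls. Without null replicate 3 or control replicate 2 or 3 the list held 3 calls.

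Of 13 Hsp70 and Hsp110 genes, 12 were tested and 7 were called, all higher (58.3% against 0.982% of all genes). The median was 2.60 (2.29 with 2 members set at their bounds). *Hsp70Bc* had 25.7, 10.3, 7.12 and 15.2 CPM in the null samples, against 0.494, 0.182, 0.351 and 0.526 CPM in the controls (log2 fold change 5.11, SE 0.47, edgeR adjusted p = 0.000534). *Hsp70Ba* had 10.7, 4.07, 1.88 and 8.2 CPM in the null samples, against 0.0411, 0, 0 and 0 CPM in the controls, and *Hsp70Aa* had 3.19, 1.77, 0.963 and 3.6 CPM in the null samples, against 0, 0, 0 and 0.0438 CPM in the controls. No control sample had more than 1 count of either, so *Hsp70Ba* was at least 37.7-fold higher and *Hsp70Aa* at least 14.4-fold higher in the null samples, with 3 counts taken as the floor of each control library. The Hsp70 copies are nearly identical, so the split of reads between them is uncertain. Null replicate 3 was the lowest null sample and replicate 2 the next for each of *Hsp70Aa*, *Hsp70Ba* and *Hsp70Bc*. *Hsc70-3*, the chaperone BiP of the endoplasmic reticulum, had 1271, 1134, 969.6 and 897 CPM in the null samples, against 616, 618, 716 and 621 CPM in the controls (log2 fold change 0.73, SE 0.11, edgeR adjusted p = 0.00736), and it lost its call without null replicate 1 (log2 fold change 0.64, edgeR adjusted p = 0.013).

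Hsp90 and its partners in the cytosol followed. *Hsp83*, the fly Hsp90, had 1194, 863, 772 and 913 CPM in the null samples, against 326, 350.4, 419.6 and 318 CPM in the controls (log2 fold change 1.40, SE 0.14, edgeR adjusted p = 0.00094), and it overlaps *CG14966*. *DnaJ-1*, an Hsp40, had 338, 245, 221 and 329 CPM in the null samples, against 93, 104, 111 and 97.7 CPM in the controls (log2 fold change 1.48, SE 0.14, edgeR adjusted p = 0.000669). *Stip1*, which links Hsp70 and Hsp90, had 93.8, 92, 95.2 and 88.6 CPM in the null samples, against 49.3, 57.9, 63.1 and 53.1 CPM in the controls (log2 fold change 0.73, SE 0.09, edgeR adjusted p = 0.00224). It lost its call without control replicate 1 (log2 fold change 0.67, edgeR adjusted p = 0.00675). Of the 15 tested genes of this list (Hsf, Hsp90 and their partners) 4 were called, all higher (26.7% against 0.982% of all genes). A positive log2 fold change was found for 14, and the median was 0.22. The summed level was 3372, 2904, 2838 and 2945 CPM in the null samples, against 1800.3, 1877, 1984 and 1834 CPM in the controls.

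Of 21 tested folding genes of the endoplasmic reticulum, 18 were positive and the median was 0.24. Called genes numbered 3, all higher (14.3% against 0.982% of all genes). Beside *Hsc70-3* these were *Ero1L*, an oxidase for disulfide bonds, with 88.4, 90.8, 84.2 and 87.8 CPM in the null samples, against 47.3, 53.8, 51.9 and 52.4 CPM in the controls (log2 fold change 0.77, SE 0.07, edgeR adjusted p = 0.000461), and *Cnx14D*, a calnexin of low level, with 1.73, 2.1, 1.3 and 2.68 CPM in the null samples, against 0.576, 0.455, 0.526 and 0.438 CPM in the controls (log2 fold change 1.95, SE 0.29, edgeR adjusted p = 0.00638). Without null replicate 1 the list held 2 calls.

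**Figure D3:**
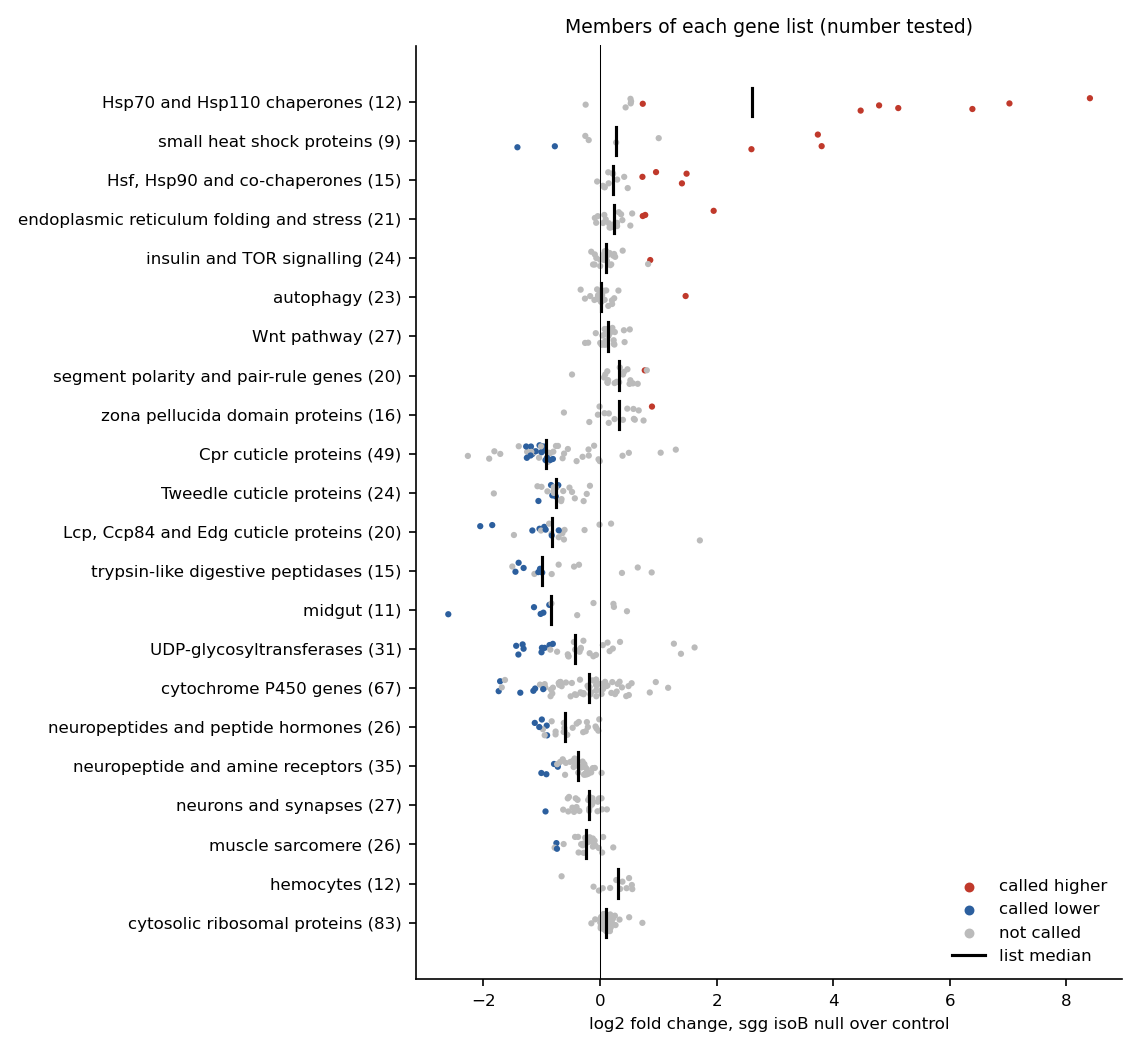
Log2 fold change (sgg isoB zygotic null over control) of every tested member of 22 gene lists, 1 point a gene, with called genes in red (higher) or blue (lower), other genes in grey and the list median as a black bar. The calls of the chaperone lists lie to the right apart from 2 small heat shock genes, those of the cuticle, peptidase and neuropeptide lists lie to the left, and the Wnt and ribosomal protein lists hold no call.

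Genes that act in translation control included further strong rises. Of 14 tested initiation factors and their repressors, 3 were called higher (21.4% against 0.982% of all genes) and 1 lower (7.14% against 3.58%). *larp*, an RNA-binding protein that acts on messenger RNAs of the translation machinery, had 783, 702, 667 and 686 CPM in the null samples, against 340.2, 274, 344 and 321 CPM in the controls (log2 fold change 1.15, SE 0.09, edgeR adjusted p = 0.00021). *Pdcd4*, an inhibitor of the helicase eIF4A in mammals, had 316, 399, 383 and 295 CPM in the null samples, against 219, 159.6, 162 and 166 CPM in the controls (log2 fold change 0.98, SE 0.13, edgeR adjusted p = 0.00455), and it overlaps *asRNA:CR43833*. With *Thor*, these 3 higher genes act as repressors or regulators of initiation. *eIF4E3*, a cap-binding protein known from the testis, was lower at 0.693, 0.686, 0.503 and 1.52 CPM in the null samples, against 2.76, 3.37, 3.24 and 2.59 CPM in the controls (log2 fold change -1.79, SE 0.33, edgeR adjusted p = 0.0131). All 4 kept their call in each fit without 1 sample. None of the 83 tested cytosolic ribosomal protein genes was called by edgeR, DESeq2 or limma-voom. Of these, 81 had a positive log2 fold change and the median was 0.10. An unadjusted p under 0.05 was found for 12 of them, a smaller share than among all genes (3299 of 10693 tested).

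In the insulin and TOR list 1 of 24 tested genes was called, and it was higher (4.17% against 0.982% of all genes). This was *ImpL2*, a secreted protein that binds insulin-like peptides and antagonises them, with 275, 344, 309.6 and 446 CPM in the null samples, against 166, 182, 167 and 242 CPM in the controls (log2 fold change 0.86, SE 0.17, edgeR adjusted p = 0.0152). The call was lost without control replicate 2 or 3 (log2 fold change 0.80 to 0.84, edgeR adjusted p = 0.0539 to 0.054). The list median was 0.11. Autophagy genes showed a single call too, *Atg13*, among 23 tested (4.35% against 0.982% of all genes called higher), with a median of 0.02.

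Beside *Hph*, the hypoxia list held 1 more called gene, *Pdk*, the kinase that shuts off pyruvate dehydrogenase, with 116, 108, 120.0 and 97.4 CPM in the null samples, against 83.9, 56.3, 63.6 and 59.4 CPM in the controls (log2 fold change 0.74, SE 0.13, edgeR adjusted p = 0.0109). Its call was lost without control replicate 2 or 4 (log2 fold change 0.68 to 0.70, edgeR adjusted p = 0.0296 to 0.0402). Of 11 genes in this list 2 were called higher (18.2% against 0.982% of all genes) and 9 were positive, with a median of 0.18. *Pepck2*, an enzyme related to gluconeogenesis, had 22.6, 20.7, 14.9 and 15.8 CPM in the null samples, against 12.9, 7.92, 9.29 and 11.4 CPM in the controls (log2 fold change 0.82, SE 0.19, edgeR adjusted p = 0.0251). It lost its call without null replicate 2 or control replicate 2 or 3 (log2 fold change 0.72 to 0.79, edgeR adjusted p = 0.0555 to 0.082). *Pdk* belongs to this list too, and the other 14 of 16 tested genes of glycolysis and gluconeogenesis were not called, with a list median of 0.07. The 2 calls made up 12.5% of the list, against 0.982% of all genes called higher. The list held 0 calls without control replicate 2, and 1 without null replicate 2 or control replicate 3 or 4.

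Genes of DNA repair and apoptosis went both ways. Of 28 tested, 3 were called higher (10.7% against 0.982% of all genes) and 2 lower (7.14% against 3.58%), with a median of 0.07. The higher genes were *phr*, *tefu*, the fly ATM kinase (log2 fold change 0.72, named after its values were seen), and *Gadd45*. *Gadd45*, a stress-induced regulator, had 20.5, 31.6, 36.1 and 46.1 CPM in the null samples, against 12.3, 14.6, 13.3 and 13.3 CPM in the controls (log2 fold change 1.34, SE 0.21, edgeR adjusted p = 0.00775). *Fancl*, the ubiquitin ligase subunit of the Fanconi anaemia pathway, had 1.39, 1.61, 2.14 and 2.0 CPM in the null samples, against 5.88, 3.46, 5.26 and 3.99 CPM in the controls (log2 fold change -1.38, SE 0.23, edgeR adjusted p = 0.00916), and it overlaps *ohgt* and *asRNA:CR44192*. *Top3alpha*, a topoisomerase, had 6.45, 8.35, 7.71 and 9.52 CPM in the null samples, against 16, 16.8, 13 and 13.5 CPM in the controls (log2 fold change -0.88, SE 0.15, edgeR adjusted p = 0.00976). None of the 14 tested genes of the JNK pathway and its stress targets was called by edgeR, DESeq2 or limma-voom, and the median was 0.08. An unadjusted p under 0.05 was found for 4 of them, against 3299 of all 10693 genes tested.

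The Wnt pathway is the best known place of action of the kinase. None of the 27 tested genes, *sgg* among them, was called by edgeR, DESeq2 or limma-voom. Of these, 24 had a positive log2 fold change and the median was 0.14. An unadjusted p under 0.05 was found for 8 of them, a share close to that of all genes (3299 of 10693 tested). The edgeR count was 0 in each fit without 1 sample as well. Of the 5 members with the smallest p, 3 passed the adjusted p but not the fold threshold. *wg*, the ligand Wingless, had 38.5, 41.4, 34.4 and 42.7 CPM in the null samples, against 22.8, 29.6, 29.2 and 28.8 CPM in the controls (log2 fold change 0.51, SE 0.11, edgeR adjusted p = 0.0215). *fz2*, a Wingless receptor, had 470.4, 432, 399.8 and 343 CPM in the null samples, against 294, 311, 317 and 307 CPM in the controls (log2 fold change 0.42, SE 0.10, edgeR adjusted p = 0.0259). *nkd*, which is induced by the pathway and feeds back on it, had 234, 191, 185 and 194 CPM in the null samples, against 139, 146, 149 and 173 CPM in the controls (log2 fold change 0.41, SE 0.10, edgeR adjusted p = 0.0309). For these 3, with log2 fold changes of 0.41 to 0.51, every null sample was above every control. This held for 5 of the 27 tested genes, *Duba* among them, against 7.78% of all genes. *Duba* (log2 fold change 0.23, SE 0.07, edgeR adjusted p = 0.0524) and *Axn*, the scaffold of the destruction complex (log2 fold change 0.25, SE 0.09, edgeR adjusted p = 0.0981), did not pass.

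Segment polarity and pair-rule genes, which pattern the embryonic epidermis, were positive in 19 of 20 cases with a median of 0.33. In 11 of the 20 every null sample was above every control, against 7.78% of all genes. The single called gene was *ptc*, the receptor of Hedgehog and a target of its pathway, with 156, 139.7, 123 and 138 CPM in the null samples, against 76.5, 78.2, 82.8 and 90.0 CPM in the controls (log2 fold change 0.77, SE 0.09, edgeR adjusted p = 0.00213). This call was 5% of the list, against 0.982% of all genes called higher. Without null replicate 3 the list held 2 calls. Its summed level did not separate the groups, with 1680, 1255, 1480 and 1771 CPM in the null samples, against 1482, 1585, 1730 and 1602 CPM in the controls. The lowest log2 fold change in the list was -0.48.

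Of the lists counted here, that of the Cpr cuticle proteins held the most lower calls. The larval cuticle is laid down by the epidermis late in embryogenesis, from chitin and from proteins of the Cpr, Tweedle, Lcp and Ccp84 families. Of 49 tested Cpr genes, which carry a chitin-binding domain, 17 were called, all lower (34.7% against 3.58% of all genes), 45 had a negative log2 fold change and the median was -0.94. *Cpr67Fa1* had 37.4, 26.9, 45.8 and 32.3 CPM in the null samples, against 76.2, 86.8, 78.4 and 82.5 CPM in the controls (log2 fold change -1.19, SE 0.15, edgeR adjusted p = 0.00288). *Cpr65Av* had 31.1, 27.2, 28.9 and 30.1 CPM in the null samples, against 48.9, 62.8, 66.8 and 47.9 CPM in the controls (log2 fold change -0.95, SE 0.12, edgeR adjusted p = 0.00354). *Cpr78Cc* and *Cpr92F* had log2 fold changes of -1.19 (SE 0.17) and -0.94 (SE 0.14). In these 4 genes no null sample reached the lowest control. The summed level of the Cpr genes was 2465, 1431, 2358 and 2771 CPM in the null samples, against 3087, 4598, 4673 and 3838 CPM in the controls, with null replicate 2 the lowest of the 8. The number called depended on the samples and was 6 without control replicate 2 or 3, 8 without null replicate 3 and 20 without null replicate 4.

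Among 24 tested Tweedle genes all 24 were negative, 5 were called lower (20.8% against 3.58% of all genes) and the median was -0.76. *TwdlL* had 145, 189, 171 and 139 CPM in the null samples, against 266, 341, 270.5 and 257 CPM in the controls (log2 fold change -0.82, SE 0.12, edgeR adjusted p = 0.00708), and *TwdlB* had a log2 fold change of -1.06 (SE 0.18). *TwdlM*, with group means of 976 ± 114 CPM in the null samples and 1605 ± 260.5 CPM in the controls (SD, n = 4 each), lost its call without null replicate 2 or control replicate 2 or 3 (log2 fold change -0.62 to -0.67, edgeR adjusted p = 0.0252 to 0.0439). *TwdlV* (log2 fold change -0.76, SE 0.20), whose groups overlapped, lost it without null replicate 1, 2 or 3 or control replicate 2, 3 or 4 (log2 fold change -0.59 to -0.80, edgeR adjusted p = 0.0608 to 0.117). The number called was 11 without null replicate 4, 3 without any other null sample and 2 without control replicate 2 or 3. The summed level was 5348, 3225, 4783 and 6177 CPM in the null samples, against 6700.0, 9131, 8745 and 6993 CPM in the controls.

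Of 20 tested Lcp, Ccp84 and Edg genes 8 were called, all lower (40% against 3.58% of all genes), and the median was -0.83. *Ccp84Aa* had 4.65, 4.72, 5.07 and 3.0 CPM in the null samples, against 11.1, 18.5, 21.8 and 11.5 CPM in the controls (log2 fold change -1.85, SE 0.26, edgeR adjusted p = 0.00507). *Lcp65Ae* had 9.36, 21.4, 18.5 and 6.12 CPM in the null samples, against 33.7, 65.7, 86.1 and 46.3 CPM in the controls (log2 fold change -2.06, SE 0.41, edgeR adjusted p = 0.0161), with a wide spread in both groups. That call was lost without control replicate 2 or 3 (log2 fold change -1.80 to -1.99, edgeR adjusted p = 0.0523 to 0.0526). *Ccp84Ad* and *Edg78E* had log2 fold changes of -0.96 (SE 0.13) and -1.04 (SE 0.17). The list held 3 calls without control replicate 2 or 3. Its summed level was 907, 824, 863 and 893 CPM in the null samples, against 1345, 1689, 1737 and 1233 CPM in the controls, and here the null samples lay close together.

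Genes that make or bind chitin were mixed. Of 24 tested, 3 were called lower (12.5% against 3.58% of all genes) and 1 higher (4.17% against 0.982%), with a median of -0.16. *obst-J*, a secreted chitin-binding protein, had 11, 7.62, 13.4 and 13.8 CPM in the null samples, against 22.4, 37.1, 43.7 and 27.9 CPM in the controls (log2 fold change -1.52, SE 0.24, edgeR adjusted p = 0.00826). *obst-E* (log2 fold change -0.79, SE 0.19) lost its call without null replicate 2 or 3 or control replicate 2, 3 or 4 (log2 fold change -0.60 to -0.82, edgeR adjusted p = 0.0297 to 0.0875). *Mur29B* (log2 fold change -0.80, SE 0.20), a mucin-related protein, lost it without null replicate 1, 2 or 3 or control replicate 2 or 3 (log2 fold change -0.65 to -0.82, edgeR adjusted p = 0.0674 to 0.104). *knk*, which organises chitin in the newly made matrix, was higher at 15.9, 15.2, 10.7 and 15.4 CPM in the null samples, against 7.32, 8.56, 9.82 and 8.28 CPM in the controls (log2 fold change 0.75, SE 0.15, edgeR adjusted p = 0.0182). It overlaps *asRNA:CR46038* and lost its call without null replicate 1 or control replicate 1 or 2 (log2 fold change 0.68 to 0.75, edgeR adjusted p = 0.0359 to 0.056). The list held 1 call without control replicate 2, and 2 without control replicate 3 or null replicate 1, 2 or 3.

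Zona pellucida domain genes and their partners, which shape the apical surface of epidermal cells, were positive in 12 of 16 cases, with a median of 0.32. A single gene was called, higher (6.25% against 0.982% of all genes). *dy* (dusky) was called, with 74, 72.3, 52.5 and 44.6 CPM in the null samples, against 33.6, 29.7, 33.1 and 34.6 CPM in the controls (log2 fold change 0.89, SE 0.16, edgeR adjusted p = 0.0113). Without null replicate 4 the list held 6 calls. The null samples fell into a higher pair (replicates 1 and 2) and a lower pair (3 and 4) in summed level, 4630.2, 4442, 3565 and 3289 CPM in the null samples, against 3306, 3262, 3132 and 3466 CPM in the controls.

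**Figure D4:**
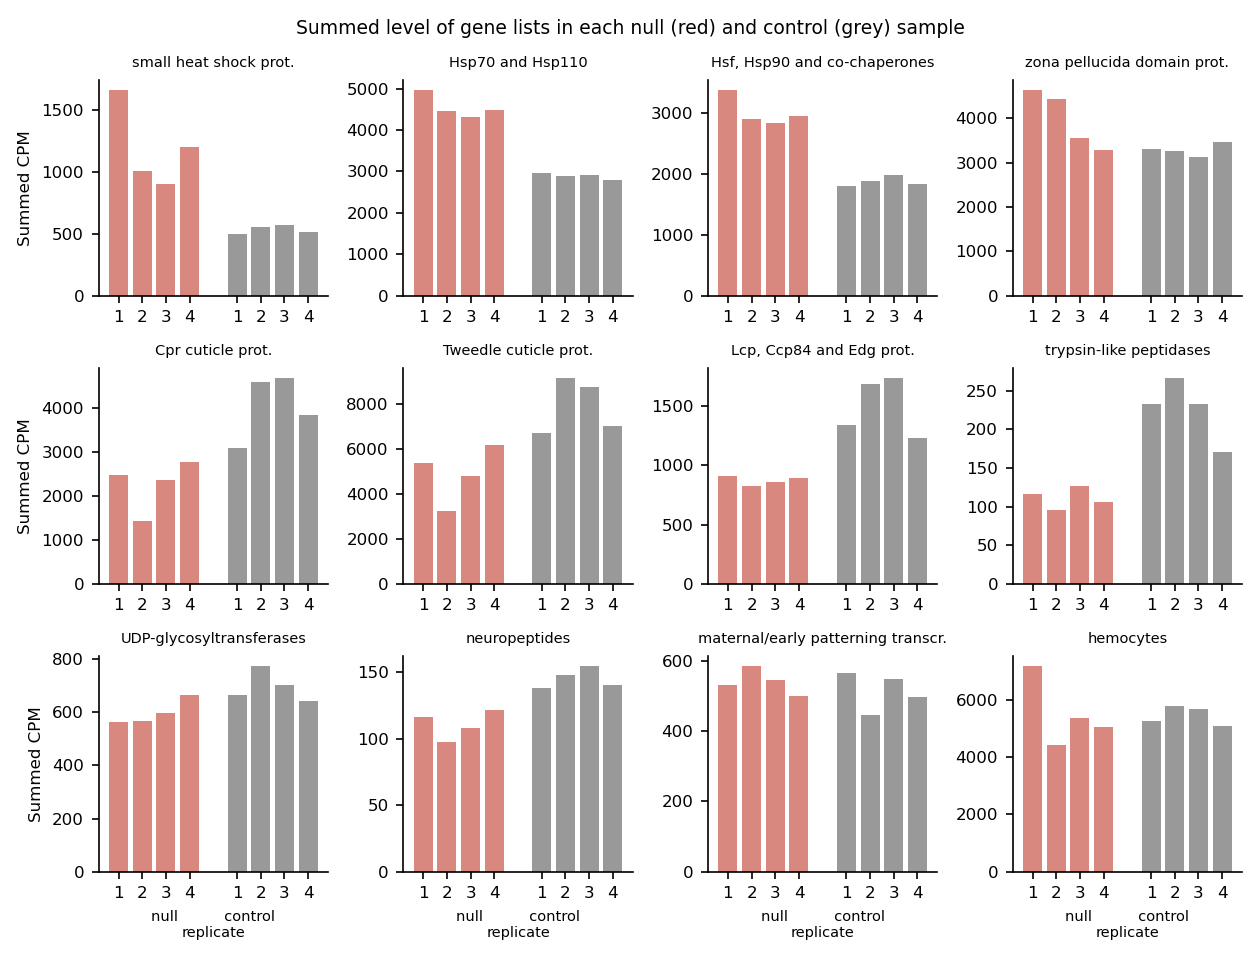
Summed CPM (linear axes from 0) of 12 gene lists in each null (red) and control (grey) sample, numbered by replicate. Small heat shock proteins lie at 906 to 1661 CPM in the null samples against 501 to 576 CPM in the controls, Cpr cuticle proteins at 1431 to 2771 against 3087 to 4673 CPM, and the early patterning transcripts and hemocyte genes overlap between the groups.

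The leading lower genes outside the cuticle families were of several kinds. *PH4alphaSG2*, a collagen prolyl hydroxylase of the salivary gland (FBgn0039779, chromosome 3R from 30490074 to 30491987), had 3.61, 3.63, 3.81 and 3.72 CPM in the null samples, against 10.1, 8.65, 10.1 and 9.29 CPM in the controls (log2 fold change -1.37, SE 0.12, edgeR adjusted p = 0.00041), and it overlaps *PH4alphaMP*. *Ude*, a nuclease that degrades uracil-containing DNA (FBgn0039226, chromosome 3R from 24797460 to 24799668), had 24.3, 22.3, 27.1 and 28.9 CPM in the null samples, against 49.2, 53.2, 57.6 and 47.3 CPM in the controls (log2 fold change -1.01, SE 0.11, edgeR adjusted p = 0.00103), and it overlaps *Ets96B*. *Try29F*, a trypsin (FBgn0015316, chromosome 2L from 8998537 to 8999816), had 31.5, 29.8, 39 and 26.4 CPM in the null samples, against 86.7, 100.5, 92.8 and 66.6 CPM in the controls (log2 fold change -1.45, SE 0.15, edgeR adjusted p = 0.00103), and it overlaps *CG18661*. All 3 kept their call in each fit without 1 sample. *asRNA:CR45185*, an antisense RNA over the chitinase gene *Cht6* (FBgn0267495, chromosome X from 10044909 to 10048156), had 7.42, 3.63, 7.08 and 8.64 CPM in the null samples, against 31.8, 29.2, 24.6 and 26 CPM in the controls (log2 fold change -2.06, SE 0.23, edgeR adjusted p = 0.00156). Strand was not used in the counting, and reads on exons of both genes are missing from its count.

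The remaining leading genes carry no function in the sources used here. *CG18649* (FBgn0036469, chromosome 3L from 15053568 to 15054135) had 44.2, 34.7, 40.6 and 35.4 CPM in the null samples, against 85.4, 89.7, 101 and 74.6 CPM in the controls (log2 fold change -1.18, SE 0.11, edgeR adjusted p = 0.000704). *CG6700* (FBgn0032305, chromosome 2L from 10837732 to 10842597) had 93.1, 81.4, 90.9 and 115 CPM in the null samples, against 195, 187, 190.1 and 182 CPM in the controls (log2 fold change -0.99, SE 0.10, edgeR adjusted p = 0.00103). Both were about 2-fold lower with groups far apart. *CG32551* (FBgn0052551, chromosome X from 18438868 to 18439260) had 0.0693, 0.161, 0.126 and 0.080 CPM in the null samples, against 1.36, 1.46, 1.05 and 0.833 CPM in the controls (log2 fold change -3.30, SE 0.37, edgeR adjusted p = 0.00156), with at most 4 reads in a null sample, so the size of its fall is uncertain. *CG15546*, *CG32453* and *Pgcl* had log2 fold changes of -1.15 (SE 0.13), -1.21 (SE 0.15) and -1.41 (SE 0.17). Of the genes with at least 1 CPM in each group, the largest falls besides those above were those of *Jhbp12*, of the juvenile hormone binding protein family, with 5.62, 10.0, 4.57 and 4.84 CPM in the null samples, against 36.7, 17.8, 24.3 and 10.0 CPM in the controls (log2 fold change -1.83, SE 0.39, edgeR adjusted p = 0.0205), and *CG8997*, with 1.59, 1.86, 2.93 and 1.8 CPM in the null samples, against 5.88, 8.65, 8.07 and 4.82 CPM in the controls (log2 fold change -1.72, SE 0.26, edgeR adjusted p = 0.00641). *Jhbp12* lost its call without null replicate 3 or control replicate 2 or 3 (log2 fold change -1.70 to -1.92, edgeR adjusted p = 0.0512 to 0.0602). Genes known only by a CG number made up 55.4% of the lower and 36.2% of the higher genes, against 35.0% of all genes tested.

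Digestive genes of the midgut were called lower in part. Of 15 tested trypsin-like peptidases 6 were called, all lower (40% against 3.58% of all genes), 12 were negative and the median was -0.99. Beside *Try29F*, *kappaTry* had 5.82, 4.19, 6.2 and 7.04 CPM in the null samples, against 12.5, 13.9, 11.5 and 9.69 CPM in the controls (log2 fold change -1.03, SE 0.18, edgeR adjusted p = 0.011). *lambdaTry* (log2 fold change -1.06, SE 0.21) lost its call without control replicate 2 or 3 (log2 fold change -0.96 to -1.06, edgeR adjusted p = 0.0519 to 0.0533). *etaTry* (log2 fold change -0.99, SE 0.23) lost it without null replicate 2 or control replicate 1, 2 or 3 (log2 fold change -0.87 to -0.97, edgeR adjusted p = 0.0516 to 0.0858). The summed level was 117, 95.9, 126 and 106 CPM in the null samples, against 232, 266, 232 and 171 CPM in the controls. The number called was 2 without control replicate 2 or 3, 3 without control replicate 1 and 4 without null replicate 3.

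Of 11 tested midgut genes 5 were called, all lower (45.5% against 3.58% of all genes), with a median of -0.83. *Npc2d*, of a family of sterol-binding proteins, had 0.347, 0.161, 0.335 and 0.36 CPM in the null samples, against 1.44, 2.09, 2.63 and 1.23 CPM in the controls (log2 fold change -2.60, SE 0.36, edgeR adjusted p = 0.00507), where the null samples held 4 to 9 reads each. *Mal-A3*, a maltase, had 53.3, 42.2, 64 and 47.8 CPM in the null samples, against 90.5, 124, 88.2 and 77.1 CPM in the controls (log2 fold change -0.87, SE 0.16, edgeR adjusted p = 0.0141). *Mal-A2* (log2 fold change -0.97, SE 0.21), another maltase, lost its call without control replicate 2 or 3 (log2 fold change -0.84 to -0.96, edgeR adjusted p = 0.0682 to 0.0705). *Npc1b*, which takes up dietary sterol (log2 fold change -1.02, SE 0.21), lost it without null replicate 3 or control replicate 2 or 3 (log2 fold change -0.83 to -1.02, edgeR adjusted p = 0.0506 to 0.0567). The list held 2 calls without control replicate 2 or 3. With the replicate block the list held 1. Its summed level was 275 to 327 CPM in the null samples and 339 to 405 CPM in the controls, with no overlap.

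Detoxification enzymes gave lower calls. None was called higher, but only 0.982% of all genes were, so that absence says little. Of 31 tested UDP-glycosyltransferases, which attach sugars to small molecules, 9 were called, all lower (29.0% against 3.58% of all genes). The median was -0.43. *Ugt303B3* had 12.6, 9.72, 13.3 and 13.7 CPM in the null samples, against 25.9, 24.7, 22.2 and 22.6 CPM in the controls (log2 fold change -0.95, SE 0.13, edgeR adjusted p = 0.0039). *Ugt303A1* had 5.82, 5.61, 7.0 and 7.0 CPM in the null samples, against 12.2, 14.2, 10.5 and 9.73 CPM in the controls (log2 fold change -0.87, SE 0.15, edgeR adjusted p = 0.0111). Both kept their call in each fit without 1 sample. *Ugt303B2* (log2 fold change -1.33, SE 0.26) lost it without control replicate 2 or 3 (log2 fold change -1.23 to -1.29, edgeR adjusted p = 0.0526 to 0.0538). *Ugt302C1* (log2 fold change -0.81, SE 0.16) lost it without null replicate 2 or control replicate 2 or 3 (log2 fold change -0.67 to -0.78, edgeR adjusted p = 0.0281 to 0.0523). The list held 2 calls without control replicate 2 or 3, 4 without null replicate 2 and 5 without null replicate 3. With the replicate block the list held 1.

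Cytochrome P450 genes, which oxidise hormones and foreign compounds, gave 6 lower calls among 67 tested (8.96% against 3.58% of all genes), with a median of -0.18. *Cyp6a18* had 1.25, 0.565, 1.21 and 1.16 CPM in the null samples, against 2.92, 4.28, 4.08 and 2.5 CPM in the controls (log2 fold change -1.71, SE 0.30, edgeR adjusted p = 0.0108). *Cyp4p2* had a log2 fold change of -1.14 (SE 0.22). *Cyp12e1* (log2 fold change -1.37, SE 0.27) lost its call without control replicate 2 or 3 (log2 fold change -1.32 to -1.34, edgeR adjusted p = 0.0535 to 0.0539). *Cyp9b2* (log2 fold change -0.98, SE 0.22) lost it without null replicate 3 or control replicate 2 or 3 (log2 fold change -0.89 to -0.98, edgeR adjusted p = 0.0578 to 0.0746). The list held 4 calls without null replicate 2 and 2 without control replicate 2 or 3. With the replicate block the list held 0. Of 33 tested glutathione S-transferase genes 2 were called lower (6.06% against 3.58% of all genes), *GstE1* (log2 fold change -1.03, SE 0.17), which overlaps *GstE10*, and *GstE5* (log2 fold change -0.79, SE 0.18), and the median was -0.30. *GstE5* lost its call without null replicate 2 or 3 or control replicate 2, 3 or 4 (log2 fold change -0.71 to -0.84, edgeR adjusted p = 0.05 to 0.0704). The list held 5 calls without control replicate 1 and 1 without null replicate 3 or any other control. With the replicate block the list held 0.

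Peptide signalling genes of the nervous system gave lower calls. The lack of a higher call among them says little, since only 0.982% of all genes were called higher. All 26 tested neuropeptides and peptide hormones had a negative log2 fold change, with a median of -0.61. Of these, 5 were called lower (19.2% against 3.58% of all genes). *AstC*, the allatostatin C precursor, had 2.84, 2.66, 2.89 and 2.96 CPM in the null samples, against 4.98, 7.92, 6.22 and 5.74 CPM in the controls (log2 fold change -1.12, SE 0.17, edgeR adjusted p = 0.00721). *Dh31*, a diuretic hormone, had 2.7, 2.38, 3.27 and 3.56 CPM in the null samples, against 5.31, 5.55, 6.44 and 5.13 CPM in the controls (log2 fold change -0.91, SE 0.17, edgeR adjusted p = 0.0147). *Dh31* lost its call without control replicate 3 (log2 fold change -0.83, edgeR adjusted p = 0.053). *Dh44* (log2 fold change -0.92, SE 0.22), another diuretic hormone, lost its call without null replicate 1 or 2 or control replicate 1, 2, 3 or 4 (log2 fold change -0.72 to -0.96, edgeR adjusted p = 0.0503 to 0.102). *Pdf* (log2 fold change -1.0, SE 0.23), a transmitter of clock neurons, lost its call without null replicate 2 or 3 or control replicate 2, 3 or 4 (log2 fold change -0.84 to -1.03, edgeR adjusted p = 0.0599 to 0.0782). In 12 of the 26 every null sample was below every control, against 12.5% of all genes. The summed level was 117, 97.4, 108 and 121 CPM in the null samples, against 138, 148, 155 and 141 CPM in the controls. The list held 1 call without control replicate 3, 2 without control replicate 2 or 4 or null replicate 2, and 3 without control replicate 1 or null replicate 3. With the replicate block the list held 1.

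Of 35 tested receptors for neuropeptides and amines 34 were negative, with a median of -0.38. Called genes numbered 4, all lower (11.4% against 3.58% of all genes). *Pdfr*, the receptor of Pdf, had 7.21, 4.48, 6.45 and 5.84 CPM in the null samples, against 11.2, 12.8, 12.4 and 11.6 CPM in the controls (log2 fold change -1.01, SE 0.15, edgeR adjusted p = 0.00708). *SIFaR* (log2 fold change -0.79, SE 0.17), the receptor of the peptide SIFamide, lost its call without null replicate 2 or 3 or control replicate 2 or 3 (log2 fold change -0.65 to -0.79, edgeR adjusted p = 0.0514 to 0.0613). *mAChR-B* (log2 fold change -0.92, SE 0.22), a muscarinic acetylcholine receptor, lost it without null replicate 2 or 3 or control replicate 2 or 3 (log2 fold change -0.74 to -0.96, edgeR adjusted p = 0.0621 to 0.0865). *Octbeta1R* (log2 fold change -0.73, SE 0.16), an octopamine receptor, lost it without null replicate 2 or 3 or control replicate 2, 3 or 4 (log2 fold change -0.57 to -0.75, edgeR adjusted p = 0.0381 to 0.0704). The list held 1 call without any 1 of control replicates 2 and 3 and null replicates 2 and 3. With the replicate block the list held 1. *Pdfr* lies within 100 kb of *sgg*.

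Sensory receptors and channels gave 6 lower calls (8.70% against 3.58% of all genes) and 2 higher calls (2.90% against 0.982%). These were among 69 tested, most of them at low level, with a median of -0.15. *TrpA1*, a channel of heat and irritant sensing, had 3.95, 2.18, 2.76 and 3.56 CPM in the null samples, against 6.46, 8.37, 7.5 and 6.27 CPM in the controls (log2 fold change -1.20, SE 0.21, edgeR adjusted p = 0.0101). *Orco* (log2 fold change -0.97, SE 0.22), the odorant co-receptor, and *ppk30* (log2 fold change -1.27, SE 0.29) were lower, and the taste receptor gene *Gr39a* (log2 fold change 0.93, SE 0.21) was higher. *Orco* lost its call without null replicate 2 or 3 or control replicate 2, 3 or 4 (log2 fold change -0.84 to -0.99, edgeR adjusted p = 0.0556 to 0.0831). *ppk30*, a sodium channel subunit gene, lost it without null replicate 2 or 3 or control replicate 2 or 3 (log2 fold change -1.16 to -1.30, edgeR adjusted p = 0.0594 to 0.0875). *Gr39a* lost it without null replicate 3 or control replicate 2, 3 or 4 (log2 fold change 0.86 to 0.99, edgeR adjusted p = 0.0613 to 0.0727). The list held 1 call without control replicate 2 or 3, 2 without null replicate 3, 3 without null replicate 2 and 4 without control replicate 4. With the replicate block the list held 0.

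Markers of broad cell types gave few calls. Among neuronal genes 3.70% were called lower and among glial genes 7.14%, against 3.58% of all genes. Of 27 neuronal genes 24 were negative with a median of -0.19, and *Hk*, a potassium channel subunit that overlaps *asRNA:CR43959*, was the single call with 14.6, 8.87, 11.7 and 14.9 CPM in the null samples, against 21.7, 26.1, 26.5 and 21.3 CPM in the controls (log2 fold change -0.94, SE 0.17, edgeR adjusted p = 0.0124). Of 14 glial genes 1 was called, the glutamate transporter *Eaat1* (log2 fold change -0.74, SE 0.15), and the median was -0.02. *Eaat1* lost its call without null replicate 2 or control replicate 2 or 3 (log2 fold change -0.62 to -0.71, edgeR adjusted p = 0.0353 to 0.0559). Of 26 muscle sarcomere genes 23 were negative and 2 were called lower (7.69% against 3.58% of all genes), with a median of -0.23. *Zasp66*, a protein of the Z-disc, had 68.2, 60.1, 59.3 and 59.1 CPM in the null samples, against 107, 106, 118 and 80.5 CPM in the controls (log2 fold change -0.74, SE 0.12, edgeR adjusted p = 0.00754). *Zasp66* lost its call without control replicate 3 (log2 fold change -0.67, edgeR adjusted p = 0.0302). *TpnC25D* (log2 fold change -0.75, SE 0.20), a troponin C that overlaps *tkv*, lost it without null replicate 1, 2 or 3 or control replicate 1, 2, 3 or 4 (log2 fold change -0.55 to -0.82, edgeR adjusted p = 0.0492 to 0.122). The muscle list held 4 calls without null replicate 4, 0 without control replicate 3 and 1 in each of the other 6 fits.

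Hemocyte genes (12 tested, median 0.31), fat body genes (4 tested, median 0.05) and tracheal genes (11 tested, median 0.08) gave no call by edgeR, with 4, 0 and 4 genes at an unadjusted p under 0.05 and 0, 0 and 1 calls by DESeq2. Limma-voom called none of them, and 1 tracheal gene was called by edgeR without null replicate 4. For comparison, 3299 of all 10693 genes tested had an unadjusted p under 0.05 by edgeR. The salivary gland list (7 tested, median 0.22) gave *PH4alphaSG2* alone (14.3% against 3.58% of all genes called lower), with 2 calls without null replicate 1. Of 23 genes of ecdysone synthesis and response 1 was called lower (4.35% against 3.58% of all genes). This was the ecdysone-induced factor *Eip74EF*, with 63.6, 48.9, 48.9 and 49.1 CPM in the null samples, against 96.7, 80.2, 103 and 65.5 CPM in the controls (log2 fold change -0.72, SE 0.15, edgeR adjusted p = 0.0186). *Eip74EF* lost its call without null replicate 2, 3 or 4 or control replicate 1, 2 or 3 (log2 fold change -0.62 to -0.75, edgeR adjusted p = 0.0302 to 0.0594). None of the 12 tested genes of dosage compensation and sex determination and none of the 13 proteins of the mitochondrial genome was called by edgeR, DESeq2 or limma-voom, with 2 and 0 genes at an unadjusted p under 0.05 and medians of 0.09 and -0.11.

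A further list held transcripts that are maternal or belong to early patterning. They have mostly gone at 10 to 15 h, so they cannot show a difference of age within that window, which was not tested. Of 15 tested none was called by edgeR or limma-voom and 1 was called by DESeq2. An unadjusted p under 0.05 by edgeR was found for 1 of the 15, against 3299 of all 10693 genes tested. Their median log2 fold change was 0.17, and their summed level was 530.1, 585, 546 and 501 CPM in the null samples, against 564, 447, 547 and 498 CPM in the controls. The groups overlapped, and 2 members were called without null replicate 1. Eggshell and yolk protein genes, which belong to the mother, summed to 18.7, 18.6, 16.4 and 21.6 CPM in the null samples, against 10.5, 14.3, 11.1 and 13.1 CPM in the controls. Of 7 tested, 2 were called, *psd*, a vitelline membrane protein, with 2.29, 2.78, 3.85 and 2.96 CPM in the null samples, against 0.782, 1.0, 0.877 and 0.57 CPM in the controls (log2 fold change 1.90, SE 0.25, edgeR adjusted p = 0.0039), and *Vml*, a related protein, with 1.04, 1.09, 0.545 and 1.28 CPM in the null samples, against 0.329, 0.273, 0.307 and 0.482 CPM in the controls (log2 fold change 1.46, SE 0.35, edgeR adjusted p = 0.0291). *Vml* lost its call without null replicate 2 or control replicate 1, 2 or 3 (log2 fold change 1.39 to 1.43, edgeR adjusted p = 0.061 to 0.0941). The 2 calls were 28.6% of the 7 tested, against 0.982% of all genes called higher. The list held 1 call without null replicate 2 or control replicate 3, 3 without control replicate 1 or 2 and 4 without null replicate 3 or control replicate 4. The eggshell sums did not overlap between the groups, and their part in the other results was not tested.

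Called genes were spread over the genome. On the 5 large arms the share of tested genes called lower ran from 2.95% on 2R to 4.56% on 3L, with 3.17% on the X, and the share called higher from 0.691% on the X to 1.39% on 2L. Of 3 tested genes on the Y, 1 was called higher, *CR40801*, named after its values were seen, with few reads (0.624, 0.605, 0.796 and 0.44 CPM in the null samples, against 0.123, 0, 0.0438 and 0.175 CPM in the controls). On chromosome 4 none of 88 tested genes was called by edgeR, DESeq2 or limma-voom, and the median log2 fold change was -0.15. An unadjusted p under 0.05 was found for 28 of the 88, a share close to that of all genes (3299 of 10693 tested). Around *sgg*, 3 of 34 tested genes within 100 kb were called, *Pdfr*, *CG2681* and *Syx4*, all lower, and within 1000 kb these 3 and *Vml* were called among 171, against 4.56% of all genes tested in either direction. *CG2681* and *Syx4* are named because they lie beside the edited locus, after their values were seen.

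Some neighbouring genes moved together. There were 9 runs of at least 4 genes called in the same direction with no more than 1 other tested gene between neighbours, and those below were chosen after their values were seen. On 3L from 16305225 to 16331227, 8 of 9 tested genes were called lower (*CG13043*, *CG13063*, *CG13042*, *CG13041*, *CG13060*, *CG13059*, *CG13038* and *CG33061*). On 3L from 22669956 to 22699870 all 6 tested genes were called lower, among them *Jhbp6* and *CG32453*. The Lcp65A cluster on 3L from 6130386 to 6139974 held 5 lower genes among 6 tested, from *Lcp65Ag3* to *Cpr65Av*. Gene families made up several runs. On 2R from 11336840 to 11341423 lay *lambdaTry*, *kappaTry*, *zetaTry* and *etaTry*, 4 of 4 lower, and on 3R from 11154626 to 11170246 lay 4 lower Ugt genes among 5 tested. Of the 9 runs, the only one of higher genes was that of the Hsp70B copies on 3R from 12465453 to 12511461, with 4 of 5. Neighbours of this kind are often duplicates, so they are not independent of each other.

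The response of the leading genes was then set beside that in sgg isoA null embryos. Those lack the other main C-terminal class, both maternally and zygotically, came from a homozygous stock and were collected without selection for fluorescence, with controls of the progenitor strain (3 null and 3 control samples). A fit of all 14 samples tested the difference between the 2 effects, and at an adjusted p of at most 0.05 it was found for 280 of 11021 genes (2.54%). The 2 experiments differ in the maternal genotype, the selection of embryos and the control as well as in the exon removed. By the crosses, males are expected in the sgg isoB experiment and both sexes in the sgg isoA experiment. The parts of these differences cannot be told apart. The number was 167, 152, 154 and 173 without sgg isoB control replicates 1, 2, 3 and 4. Of the 10 leading higher genes all 10 differed and of the 10 leading lower genes 5 did, by this edgeR test. These 20 genes were chosen for the smallest p of the sgg isoB effect, which is part of the tested difference, so these counts and signs follow in part from the choice. Other calls were not compared, so they may or may not be shared with sgg isoA nulls. After their values were seen, *Cnx14D* and *Hsp68* are named, with log2 fold changes of 2.68 (SE 0.46) and -1.44 (SE 0.33) in sgg isoA nulls.

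*Hph*, *Thor* and *fok* had small negative log2 fold changes in sgg isoA nulls, -0.20 (SE 0.13), -0.11 (SE 0.10) and -0.19 (SE 0.10), and those of *Sirup*, *Atg13* and *Dph1* were 0.12 (SE 0.17), 0.16 (SE 0.15) and 0.26 (SE 0.20). The differences for these 6 genes were 3.03, 2.54, 1.70, 1.99, 1.33 and 2.03 on the log2 scale. *Hsp23* differed by 3.39 (edgeR adjusted p = 0.000193) and *phr* by 2.14 (edgeR adjusted p = 0.000943). *CG10600* and *CG9444* had positive effects in both lines, and the differences were smaller, 0.80 and 0.64. That of *CG9444* no longer passed without null replicate 3 or control replicate 1, 2 or 3, with differences of 0.63 to 0.65.

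Among the lower genes, *CG6700* (-1.19), *Try29F* (-1.58), *asRNA:CR45185* (-2.32), *CG32551* (-4.16) and *Pgcl* (-1.27) differed from their response in sgg isoA nulls. The difference of *Pgcl* no longer passed without control replicate 2 (-1.13) or 3 (-1.24). For *PH4alphaSG2*, *Ude*, *CG15546*, *CG32453* and *CG18649* the test did not find a difference, with edgeR adjusted p-values of 0.071, 0.0653, 0.246, 0.236 and 0.738. Of these, *CG18649* had the closest values in the 2 lines, -1.18 (SE 0.11) in sgg isoB and -0.90 (SE 0.38) in sgg isoA nulls, where the isoA error is wide.

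**Figure D5:**
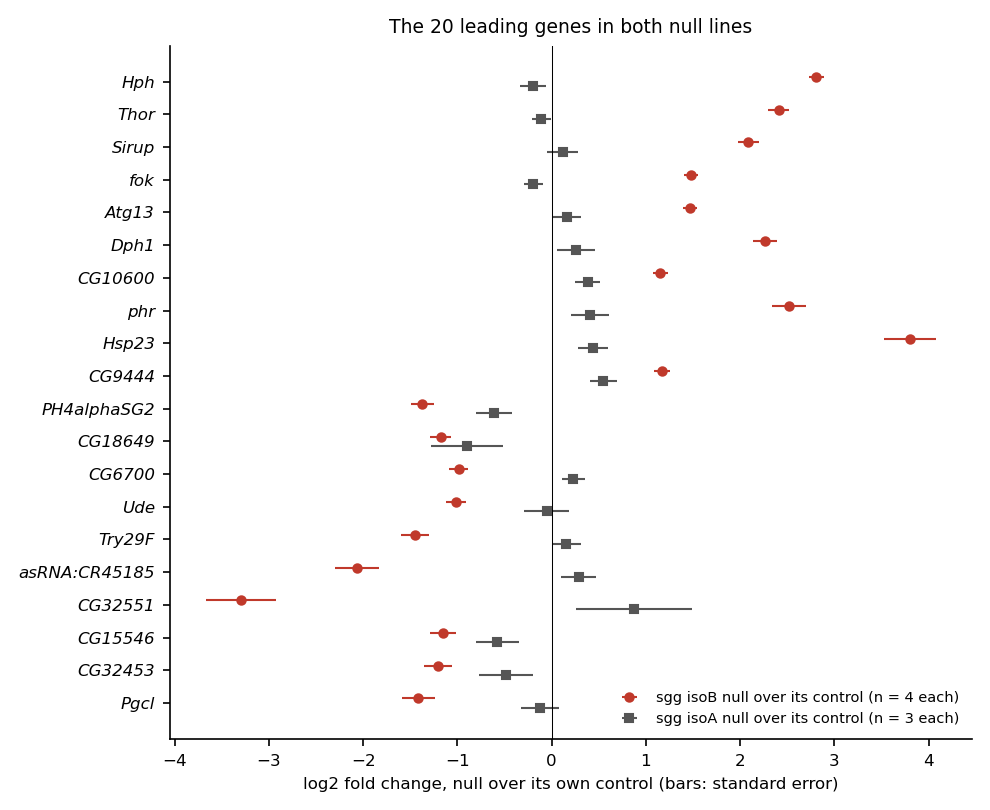
Log2 fold change of the 20 leading genes in sgg isoB zygotic nulls over their control (red circles, 4 samples a group) and in sgg isoA nulls over theirs (grey squares, 3 samples a group), with standard errors. For the higher genes the red points lie between 1.15 and 3.80 and the grey points between -0.20 and 0.55, while several lower genes, such as *CG18649*, lie on the same side of 0 in both lines.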

How the data were processed

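The samples were whole *Drosophila melanogaster* embryos of 10 to 15 h, in 4 sgg isoB zygotic null and 4 control samples, grouped by the deposited labels, and 6 samples of the sgg isoA experiment entered only the test of the difference between lines. Raw counts per gene were deposited by the authors, who aligned single-end reads with TopHat2 2.1.1 and Bowtie2 2.3.4.0 (submitters' processing notes) and counted them over exons with Rsubread on a Release 6 annotation under default parameters, which do not use strand and drop reads on more than 1 gene. The authors also deposited limma-voom results (log2 CPM with p-values and fold changes), made with edgeR 3.14.0 and limma 3.28.21, and these were not used. Symbols and positions came from an Ensembl annotation of Release 6, in which 17362 of 17493 identifiers matched. Of the per-sample columns 0 could not be mapped.

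Counts were tested with edgeR 4.0.16 (filterByExpr with a minimum count of 10 and a total of 15, TMM scaling, quasi-likelihood test, two-sided, Benjamini-Hochberg adjustment over all genes tested), under R 4.3.3. The thresholds for a call were 0.05 for the adjusted p and 0.7 for the log2 fold change in either direction. The study used limma-voom, which is an alternative here, since the unit is raw counts. CPM were scaled by TMM factors, and log2 CPM had a prior count of 2. Totals of 11189291 to 25124367 counts a sample set the precision, and floors of 3 counts cover counting error only. The named genes were *sgg*, the 10 called genes with the smallest p in each direction without overlap between groups, the 5 with the largest rise and the 5 with the largest fall at a mean of 1 CPM or more in each group, up to 4 called members of each list with the smallest p, and the 5 Wnt genes with the smallest p. Members and lists were chosen with earlier results of these data known. On simulated counts in which 200 genes were changed, the test for sgg isoB recovered 58 of 64 genes changed by 1.5 on the log2 scale, 69 of 70 changed by 2 and 63 of 63 changed by 3, and called 3 of 10394 unchanged genes, among 10591 genes. That of the difference between lines recovered 39 of 66, 54 of 70 and 55 of 64 genes at these sizes and called 4 of 10727 unchanged genes, among 10927 genes. Changes under 1.5 were not simulated, so recovery was not measured at the median called changes of 1.12 (higher) and -0.99 (lower). Noise was drawn for each gene apart, so shifts shared by many genes of a sample were not included. Alternatives were RLE and upper quartile scaling, no filter on low counts, DESeq2 1.42.0, limma-voom (limma 3.58.1), a replicate block and leaving out each sample. The annotation was used without a genome sequence.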

Additional observations from a re-analysis of the deposited data

Results flagged for a closer look

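For 11 of 210 groups of 4 samples examined (2 for each of 105 named genes), the gap between the highest or lowest sample and the next, as a share of the range of log2 CPM, exceeded the critical value of Dixon's test for 4 samples, which chance gives in about 1 in 20 groups. Among the null samples these were *Zasp66* (0.888 of the range, replicate 1 highest), *Eip74EF* (0.986, replicate 1 highest), *Npc2d* (0.902, replicate 2 lowest), *Cyp6a18* (0.904, replicate 2 lowest), *knk* (0.874, replicate 3 lowest) and *Ccp84Aa* (0.833, replicate 4 lowest). Among the controls they were *Hsp70Ba* (1, replicate 1 highest) and *Hsp70Aa* (1, replicate 4 highest), where a single read stood against 0 in the other controls, *Pdcd4* (0.882, replicate 1 highest), *wg* (0.896, replicate 1 lowest) and *Hsc70-3* (0.951, replicate 3 highest).

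The effect in sgg isoB zygotic nulls and that in sgg isoA nulls differed by the edgeR test of the difference, on the log2 scale, for 15 of the 20 leading genes. The differences were 3.03 for *Hph*, 2.54 for *Thor*, 1.99 for *Sirup*, 1.70 for *fok*, 1.33 for *Atg13*, 2.03 for *Dph1*, 0.80 for *CG10600*, 2.14 for *phr*, 3.39 for *Hsp23* and 0.64 for *CG9444*. Among the lower genes they were -1.19 for *CG6700*, -1.58 for *Try29F*, -2.32 for *asRNA:CR45185*, -4.16 for *CG32551* and -1.27 for *Pgcl*. The largest adjusted p was 0.031, for *CG9444*. The genes were chosen for their sgg isoB effect, which is part of each difference.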

How the results depend on the processing

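The 488 calls (105 higher, 383 lower) were 468 with RLE scaling, 485 with upper quartile scaling, 453 without a filter on low counts, 486 with limma-voom and 615 with DESeq2, which called 159 genes higher. Of the main calls, 457, 480, 417, 453 and 470 were shared with these fits. Leaving out 1 sample gave 202 to 676 calls, 65 to 147 of them higher and 137 to 529 lower. Whether equal replicate numbers mark samples handled together is not stated, and 4 samples a group are too few for correlations to settle it. The correlation of deviations was -0.12, -0.19, 0.06 and 0.19 for numbers 1 to 4. Null replicates 3 and 4 correlated best with the control of their own number. Null replicates 1 and 2 did so with control replicates 3 (0.17) and 1 (0.37). With the number as a replicate block 170 genes were called, 54 higher and 116 lower, and 161 of them were among the main calls. The Hsp70 and Hsp110 list held 7 calls with this block, and the Lcp, Ccp84 and Edg list held 8. The small heat shock list held 3, the Cpr list 8, the Tweedle list 3 and the trypsin-like peptidase list 3. The difference from sgg isoA nulls was found for 280 genes, and for 152 to 319 when 1 of the 8 sgg isoB samples was left out (sgg isoA samples were kept in each fit), and the cause of these shifts was not tested. Of 104 named genes other than *sgg*, 56 kept their side of the threshold and their direction in every alternative run and none changed sign in any. The number that lost a call was 0 with upper quartile scaling and limma-voom, 3 with DESeq2, 4 with RLE scaling or no filter, 41 with the block and 1 to 32 when 1 sample was left out. *sgg* was called in none, with log2 fold changes of -0.31 to -0.18. Depth limits genes of few reads, such as *CG32551*, whose null samples had 1 to 4 counts.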
